A study of Drosophila melanogaster with 18 samples.

Results

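Cytosolic ribosomal protein genes were followed across 18 expression arrays of whole adult Drosophila melanogaster males. The members were the probe sets assigned to 1 gene whose symbol starts with RpL, RpS or RpLP and goes on with a digit. There were 47 such probe sets for 41 genes, among 18769 probe sets tested, of which 13647 carried 1 gene. Symbols ending in a lower-case a or b, or in -like, were taken as paralog copies (13 genes, 13 probe sets), and all others as main copies (28 genes, 34 probe sets). RefSeq lists 91 symbols of this form, so 50 of them had no probe set of a single gene in the annotation used and were not analysed here. A further 3 probe sets paired such a symbol with another gene and were left out.

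All males descended from the outbred laboratory population LHm and were collected at day 14, when they had been adult for 4 days. Control males inherited their X-chromosome from the mother. CDX males were sons of a Control father and a DX female, whose X-chromosomes are joined at the centromere, so that their X had passed from father to son for 1 generation. MLX males came from populations in which the X had been passed from father to son over many generations, with some X-chromosomes that had recombined in females returned to them. CDX and MLX males also took their Y from a DX mother. Each of the 3 treatments had 3 populations with 2 arrays each, so n = 6 arrays and 3 populations per treatment. The labels give 1 male per array, whereas the methods describe males pooled before extraction, and which holds was not settled here. CDX against Control asked what a single father-son passage of the X was accompanied by in these genes. MLX against either asked the same of a long history of it. CDX and MLX males also had a DX mother, so against Control her effects and the Y cannot be told apart from the passage of the X.

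Ribosomal proteins coded by RpS genes belong to the small subunit, which reads the mRNA, and those coded by RpL genes to the large subunit, which joins the amino acids. RpLP0, RpLP1 and RpLP2 form the stalk of the large subunit that receives the elongation factors. In Drosophila the loss of a single copy of many of these genes slows development and thins the bristles, the Minute phenotype. Several ribosomal proteins have duplicate genes in the fly, and some duplicates are known for germline expression, RpL22-like in the testis and RpS5b in the ovary among them. RpL24-like, RpL7-like and RpLP0-like resemble assembly factors that in yeast (Rlp24, Rlp7 and Mrt4) help to build the large subunit and leave before it is mature.

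All values are log2 expression after RMA, and the number of arrays limits their precision. Values of different probe sets cannot be compared as amounts of RNA, since each has its own probes. Array medians lay between 6.96 and 7.08. Accessory gland genes, markers of males, averaged 12.2 to 12.7 on every array, and the testis list (47 genes measured) averaged 9.05 to 9.33. The yolk and eggshell list (18 genes), markers of females, averaged 6.30 to 7.20 on 6 arrays (1 Control, 3 CDX and 2 MLX) and 5.24 to 5.70 on the other 12. The 2 roX RNAs of the male dosage complex had no probe set in the annotation used.

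The main copies were bright and steady. Taking for each gene its probe set with the largest mean, 27 of the 28 main copies had means over the 18 arrays between 13.06 (RpL17) and 14.61 (RpL41), and RpL37-2 had 8.67. The SD over all 18 arrays was 0.02 to 0.05 in 26 of those 27 and 0.13 in RpL27. Their median SD was 0.0325, beside 0.0728 over the 266 other probe sets with a mean above 13 and 0.118 over all tested probe sets. These 266 include probe sets without a single assigned gene, and whether ribosomal protein genes are among them was not settled here. RpS21, a protein of the small subunit, had the smallest SD of the main copies, with a mean of 13.92 ± 0.02 in Control males, 13.93 ± 0.02 in CDX and 13.92 ± 0.02 in MLX (SD, n = 6 arrays each). Of the stalk genes, RpLP1 had an SD of 0.0243 over the 18 arrays, RpLP2 of 0.0309 and RpLP0 of 0.0325, the last at the median of the main copies. Values this high lie near the upper end of the scale, which reached 15.33, and whether the array still responds evenly there was not tested. The plot of all values by treatment shows the narrow columns of the main copies beside the wider ones of most paralog copies.

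**Figure D1:**
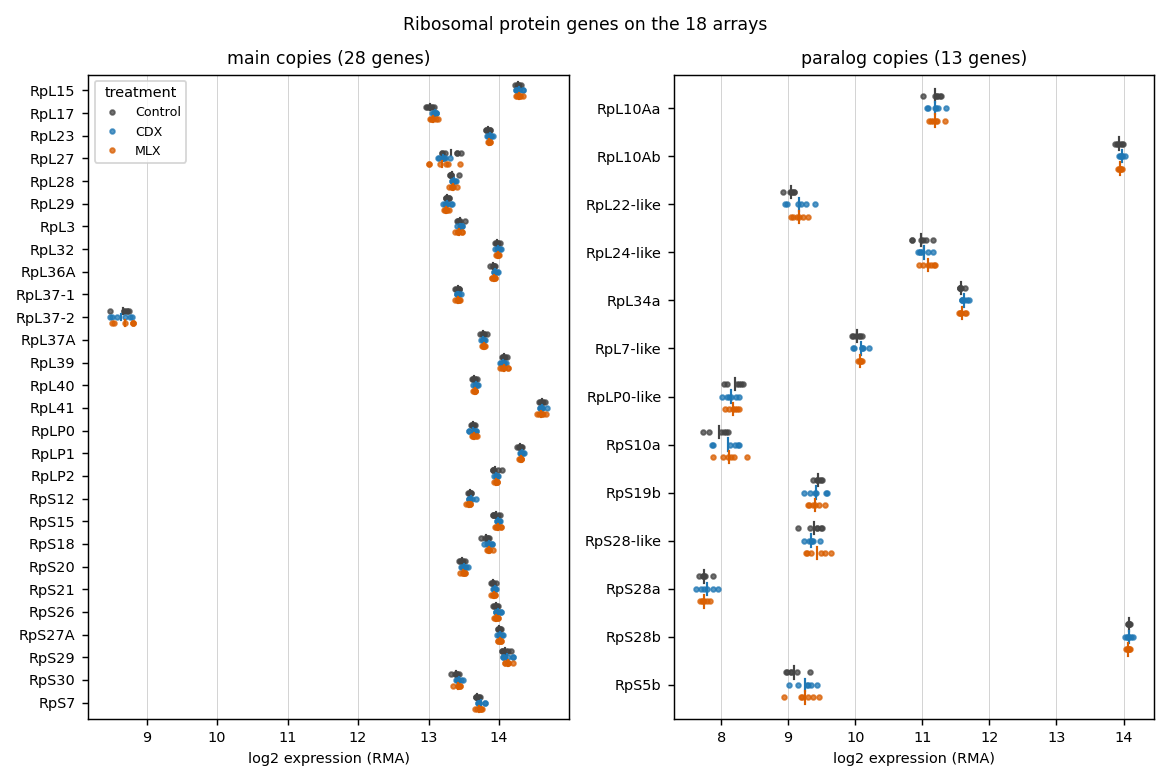
Log2 expression of 41 ribosomal protein genes (rows) on the 18 arrays, main copies on the left and paralog copies on the right. Each point is an array, coloured by treatment, and each short vertical line is the mean of 6 arrays. Apart from RpL37-2 near 8.67, the main copies lie between 12.97 and 14.68, and the 3 treatments overlap for every gene.

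**Figure D2:**
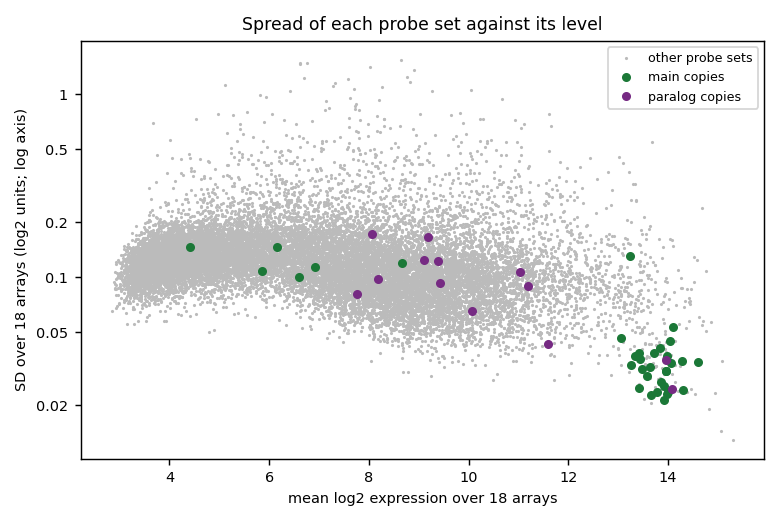
SD over 18 arrays (log axis) against the mean log2 expression of each tested probe set, with main copies in green, paralog copies in purple and all others in grey. Most main copies sit at the lower right with an SD below 0.05. RpL27 stands above them at 0.130, and the 5 dim probe sets of main copies lie at means below 8.

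No member differed between treatments past the threshold in limma. At an adjusted p under 0.05, over all tested probe sets, none of the 47 members was called between CDX and Control (background 0.0%), between MLX and Control (0.0%) or between MLX and CDX (0.0%). At an unadjusted p under 0.05 again none of the 47 was counted in any comparison, while the share over all probe sets was 2.98%, 4.19% and 2.61% in that order. Adjusted p-values of the members were at least 0.9997. Without moderation of the variances, which was tried with these values in view, 5 members had an unadjusted p under 0.05 in CDX against Control (RpL17, RpS26, RpL36A, RpS7 and RpL34a, all higher in CDX) beside 3.30% of all probe sets, and none was called. The moderated standard error of the bright main copies had a median of 0.0376, against 0.0207 from their own spread.

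The differences of the main copies were small and mostly above Control. In CDX against Control 23 of 28 main copies were higher (50.7% of all probe sets were), with a median difference of 0.017 beside 0.0011 over all probe sets. This median was 0.0067 without CDX population 2 and 0.027 without CDX population 1. In MLX against Control the count was also 23 of 28 (background 51.3%), with a median of 0.0099 beside 0.0023. In MLX against CDX 7 of 28 were higher (background 51.0%), with a median of -0.012 beside 0.0015. The 266 other probe sets above 13 had medians of 0.016, 0.010 and -0.00090 in the same order. Of them 177, 162 and 128 were higher. Against Control, their medians were thus close to those of the main copies. Since ribosomal protein genes may be among the 266, this does not show a like shift in other bright genes. CDX and MLX were set against the same Control arrays, so their counts against Control are not independent of each other. Nor are the 28 genes independent, since most of the bright ones varied together across arrays. Between populations of a treatment, the median over the main copies had an SD of 0.0172. This is about the size of the median difference in CDX against Control and larger than that in MLX against Control. Leaving aside RpL27 and RpL37-2, the 95% intervals of the other 26 main copies reached from -0.09 to 0.15 in CDX against Control, from -0.10 to 0.13 in MLX against Control and from -0.11 to 0.10 in MLX against CDX. As ratios, these outer bounds are 0.938 and 1.11, 0.935 and 1.10, and 0.929 and 1.07.

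**Figure D3:**
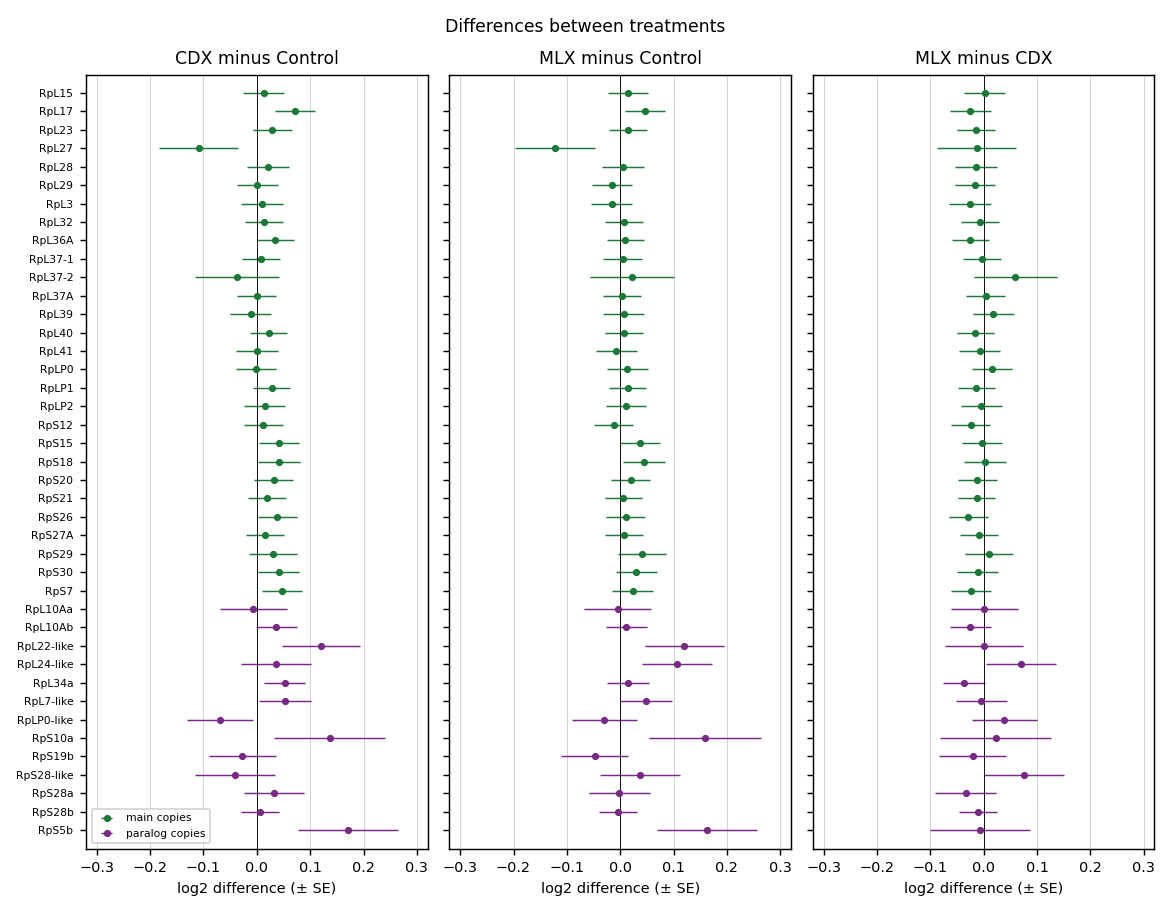
Log2 differences between treatments (points) with the standard error of the limma fit (bars) for 41 ribosomal protein genes, main copies in green and paralog copies in purple. The panels set CDX and then MLX against Control, and on the right MLX against CDX. RpL27 lies lowest against Control, at -0.11 and -0.12, and RpS5b highest in CDX against Control, at 0.17.

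RpL17, a protein of the large subunit at the exit tunnel for the growing chain and 1 of 3 members on the X, had the largest positive difference of the main copies in CDX against Control. Its Control arrays ran from 12.97 over a median of 13.02 to 13.07, its CDX arrays from 13.05 over 13.10 to 13.11, and its MLX arrays from 13.02 over 13.05 to 13.13. The Control and CDX arrays overlapped only at 13.05 to 13.07, and the MLX arrays spanned both. The difference was 0.07 (SE 0.04, limma adjusted p = 1.00) in CDX against Control and 0.05 (SE 0.04) in MLX against Control. The 3 population means of CDX lay above all 3 of Control in 3 main copies, RpL17, RpS7 (0.05, SE 0.04) and RpL36A (0.03, SE 0.03). Among all probe sets 4.12% were separated upwards in this way and 4.13% downwards, and no member was separated downwards. In MLX against Control the population means of RpS18 (0.04, SE 0.04) alone among the main copies were separated, upwards, beside 4.67% of all probe sets upwards and 3.84% downwards. No member was separated between MLX and CDX, where 3.13% of all probe sets were separated upwards and 3.0% downwards.

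RpL27, another protein of the large subunit, differed from the other bright main copies in its spread. Its Control arrays ran from 13.19 over a median of 13.32 to 13.45, its CDX arrays from 13.13 over 13.21 to 13.30, and its MLX arrays from 13.01 over 13.21 to 13.44. High values came from both arrays of Control population 1 and 1 array each of Control population 2 and MLX population 2, and both arrays of MLX population 3 read 13.01. The difference was -0.11 (SE 0.07) in CDX against Control and -0.12 (SE 0.07, limma adjusted p = 1.00) in MLX against Control. Without Control population 1 these were -0.05 and -0.06, and without MLX population 3 the latter was -0.03. With each population left out in turn, the CDX difference ran from -0.16 to -0.05 and the MLX difference from -0.20 to -0.03. With the 3' minus 5' difference of the control transcripts as a covariate the MLX difference was -0.19. RpL27 varied between populations of a treatment with an adjusted p of 0.216 in the moderated F test of limma.

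The other main copies named by size of the moderated t had differences closer to 0. RpS15 of the small subunit was 0.04 (SE 0.04) higher in both CDX and MLX than in Control. Against Control, RpL39 at the exit tunnel was at -0.01 (SE 0.04) in CDX males, RpL3, part of the peptidyl transferase region, at -0.02 (SE 0.04) in MLX males and RpL29 at -0.02 (SE 0.04) in MLX males. In MLX against CDX the values were -0.03 (SE 0.04) for RpS26, -0.02 (SE 0.03) for RpL36A, -0.02 (SE 0.04) for RpS12, 0.01 (SE 0.04) for RpLP0 and 0.02 (SE 0.04) for RpL39. None of these was past the threshold.

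Of the genes with more than 1 probe set (RpL3, RpS7, RpS29 and RpS30), 2 had probe sets of opposite sign in CDX against Control (RpL3 and RpS29), 1 in MLX against Control (RpS29) and 1 in MLX against CDX (RpS7). The dim probe sets of these genes had means of 6.92 and 4.42 (RpL3), 6.60 (RpS30), 6.15 (RpS29) and 5.86 (RpS7), against 13.4 to 14.1 for the bright ones.

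The paralog copies covered a wider span of values and most varied more. RpS28b and RpL10Ab, the copies with values like those of main copies, had means of 14.08 and 13.95 over the 18 arrays and SDs of 0.02 and 0.04. They count as paralog copies by their symbols alone, and no main copy of RpL10A or RpS28 was among the members. The counts and medians of the paralog copies include them. The other 11 had means from 7.76 (RpS28a) to 11.60 (RpL34a), and their median SD was 0.0980. The probe sets of 14 of the 28 main copies, and of none of the 13 paralog copies, carry the suffix _s_at, which marks probes shared by several transcripts, and cross-hybridisation between copies was not tested. Of the 13 paralog copies 9 were higher in CDX than in Control, with a median difference of 0.036. Between populations of a treatment, the median over the paralog copies had an SD of 0.0321. In MLX against Control 8 of 13 were higher, with a median of 0.015, and in MLX against CDX 6 of 13, with a median of -0.0043. Their 95% intervals reached from -0.20 to 0.37, from -0.18 to 0.38 and from -0.20 to 0.24 in the same order, which leaves room for ratios of up to 1.30 that these arrays could not resolve.

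RpS5b, a protein of the small subunit known from the ovary, had the largest difference of all members. Its Control arrays ran from 8.97 over a median of 9.04 to 9.33, its CDX arrays from 9.01 over 9.29 to 9.43, and its MLX arrays from 8.94 over 9.25 to 9.46. The 3 ranges overlapped widely, since 1 Control array lay among the highest and 1 array each of CDX and MLX among the lowest. The difference from Control was 0.17 (SE 0.09, limma adjusted p = 1.00) in CDX and 0.16 (SE 0.09) in MLX. The yolk and eggshell list moved with it in part, and its share in the result was not tested. The only Control array among the 6 with a high yolk mean had the highest RpS5b value of its treatment, 9.33, while the other 5 Control arrays lay between 8.97 and 9.13. In CDX the 3 yolk-high arrays lay between 9.28 and 9.34 and the other 3 between 9.01 and 9.43. In MLX the 2 yolk-high arrays read 9.30 and 9.46 and the other 4 lay between 8.94 and 9.365. With the yolk mean as a covariate the CDX difference was 0.09, and without the 6 yolk-high arrays it was 0.16. The MLX difference under these settings is not given here.

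RpS10a, a copy of RpS10 of the small subunit, ran from 7.73 over a median of 8.03 to 8.10 on Control arrays, from 7.87 over 8.16 to 8.26 in CDX and from 7.88 over 8.12 to 8.39 in MLX males. The ranges of the 3 treatments overlapped, with a difference of 0.14 (SE 0.10) in CDX and 0.16 (SE 0.10) in MLX against Control. RpL22-like ran from 8.92 over 9.04 to 9.09 in Control, from 8.95 over 9.17 to 9.39 in CDX and from 9.04 over 9.15 to 9.30 in MLX. Its difference from Control was 0.12 (SE 0.07) in both. Its CDX difference rested on CDX population 1 and was 0.03 without it, while its MLX difference stayed between 0.09 and 0.14 with any 1 population left out. Its MLX population means lay above all Control ones, as did those of RpL7-like (0.05, SE 0.05). RpL10Ab was the paralog copy whose CDX population means lay above all Control ones, at 0.04 (SE 0.04). These separations stand against the same backgrounds of 4.67% and 4.12%.

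The remaining paralog copies are given by the comparison in which their moderated t was largest. RpL24-like was 0.11 (SE 0.07) higher in MLX than in Control, RpL34a 0.05 (SE 0.04) and RpL7-like 0.05 (SE 0.05) higher in CDX than in Control. RpLP0-like was at -0.07 (SE 0.06) in CDX against Control and RpS19b at -0.05 (SE 0.06) in MLX against Control. In MLX against CDX, RpS28-like was at 0.08 (SE 0.07), RpS28a at -0.03 (SE 0.06) and RpS28b at -0.01 (SE 0.04). RpL10Aa had differences of -0.0063 (SE 0.06) in CDX and -0.0050 (SE 0.06) in MLX against Control. Every adjusted p in limma was at least 0.9997.

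Related genes were also compared in pairs, 4 pairs of copies and RpLP0-like with RpLP0, through their log2 difference within each array, averaged per population. The 5 pairs in 3 comparisons gave 15 exact two-sided permutation tests over 20 arrangements of populations, with 0.1 as the smallest p that 3 against 3 populations can give. The smallest of the 15 p-values was 0.5 (0.964 after Benjamini-Hochberg adjustment over the 15). The difference RpS28-like minus RpS28b was 0.09 larger in MLX than in CDX males, which was the widest shift of the 15, but was 0.01 without MLX population 3. RpL10Aa minus RpL10Ab shifted by -0.04 in CDX against Control. The pairs RpS28a and RpS28b, RpL37-2 and RpL37-1, and RpLP0-like and RpLP0 shifted by -0.07 to 0.06.

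On the X there were 3 members, RpL17, RpL37-1 and RpS28b, and 38 genes lay on autosomes. All 3 were higher in CDX than in Control (0.07, 0.0076 and 0.0057) and 2 of 3 higher in MLX than in Control. Medians were 0.0076 for the X-linked and 0.021 for the autosomal members in CDX against Control, beside 0.0057 over 2185 other X-linked and 0.0034 over 11305 other autosomal probe sets with 1 gene. In MLX against Control they were 0.0045 and 0.011, beside 0.0060 and 0.0072. With 3 genes on the X no difference between the chromosomes could be read from these medians.

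Populations of a treatment were also compared, with the spread between the 2 arrays of a population as error. By the moderated F test of limma 1.35% of all probe sets varied between populations at an adjusted p under 0.05, and none of the 47 members did. At an unadjusted p under 0.05 the count was 4 of 47 members beside 16.8% of all probe sets. These 4 were RpLP0-like (adjusted p = 0.119 in limma), RpS28-like (adjusted p = 0.167), the dim probe set of RpS7 (adjusted p = 0.209) and RpL27. In RpLP0-like both arrays of Control populations 1 and 2 read 8.24 to 8.33 and both of Control population 3 read 8.04 to 8.09.

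Across the 18 arrays, after the treatment means were subtracted, most of the bright main copies varied together. Pairs of the 27 bright main copies had a median Pearson's r of 0.320, with 288 of 351 pairs above 0, while the 266 other probe sets above 13 had a median of 0.003. The mean of these main copies correlated with the 3' minus 5' difference of the control transcripts, a sign of RNA quality, at r = -0.502, and its part in the shared variation was not tested. These correlations are over 18 arrays that share populations, hybridisation and normalization, and are given as a description. Of the genes counted as paralog copies by symbol, RpL24-like, RpL34a and RpL10Ab followed the mean of the bright main copies most closely, at r = 0.755, 0.725 and 0.585. RpL10Ab is itself as bright as these main copies. RpS28-like and RpL10Aa ran most strongly opposite to it, at r = -0.604 and -0.555.

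**Figure D4:**
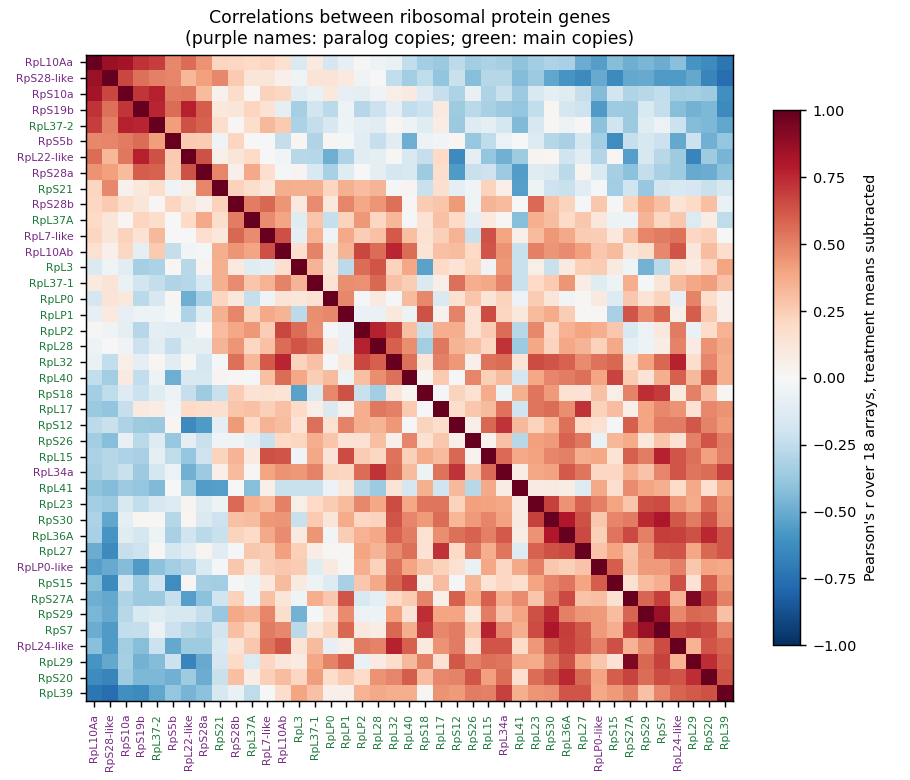
Pearson's r between 41 ribosomal protein genes over 18 arrays after subtracting treatment means, from -1 (blue) to 1 (red), with genes ordered by their r with the mean of the testis list. Most of the green main copies correlate among themselves (median r 0.320). The genes at the upper left are placed together by their r with the testis list, so their likeness to each other follows in part from the order.

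Some members rose with the testis list, in a share close to that of all probe sets. This list holds genes of spermatogenesis such as Mst77F and ocn, no ribosomal protein gene is in it, and 1 of its 47 genes, orb, is also in the female germline list. Its mean per array, which differed by only 0.277 between the lowest and the highest array, was added to the limma fit as a covariate beside treatment, a comparison chosen after the values were seen. Rising slopes passed an adjusted p of 0.05 in 6 of 47 members, 4 of the 13 paralog copies and 2 probe sets of main copies, beside 10.2% of all probe sets. Falling slopes passed in none of the 47, beside 3.86%. Whole bodies were measured, so less testis tissue and less RNA per testis cell cannot be told apart.

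RpL10Aa, a copy of the protein RpL10A at the flexible stalk beside the tRNA exit site, followed the list most closely. It rose by 1.25 log2 units per unit of the testis mean (SE 0.19, limma adjusted p = 0.000416), with r = 0.943, Spearman's rho = 0.932 and r = 0.909 without the 2 arrays farthest from the median of the list. Its lowest array was Control population 1, male 1, at 11.01, which was also the lowest in the testis mean at 9.05. Its high values, 11.36 and 11.34, were on CDX population 1, male 2 and MLX population 3, male 1, the arrays with the highest testis means, 9.29 and 9.33. Over the 9 population means r was 0.965.

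RpS28-like, a copy of RpS28 of the small subunit, rose by 1.55 per unit (SE 0.24, limma adjusted p = 0.000447), with r = 0.902, rho = 0.895 and r = 0.840 without those 2 arrays. Its Control arrays ran from 9.15 over 9.42 to 9.50, its CDX arrays from 9.23 over 9.35 to 9.47 and its MLX arrays from 9.26 over 9.41 to 9.63. RpS10a had the steepest slope, 1.98 (SE 0.35, limma adjusted p = 0.00113), with r = 0.826 and rho = 0.761. These 3 genes passed the threshold in all 18 slope fits run, with slopes of 1.13 to 1.39 for RpL10Aa, 1.32 to 1.74 for RpS28-like and 1.72 to 2.44 for RpS10a.

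RpS19b, a copy of RpS19 of the small subunit, had a slope of 0.99 (SE 0.27, limma adjusted p = 0.0186) and passed in 13 of the 18 fits, but not without CDX population 1 (0.72) or MLX population 1 (0.98). RpL37-2, counted as a main copy although the RefSeq table gives it the synonym RpL37b, had a slope of 1.25 (SE 0.33, limma adjusted p = 0.0160) and also passed in 13, but not without CDX population 1 (1.06) or Control population 1 (1.19). Its values were 8.49 to 8.75 in Control, 8.48 to 8.79 in CDX and 8.50 to 8.81 in MLX arrays, so the treatments covered the same range. The sixth was the dim probe set of RpS29, at 6.15, with a slope of 1.35 (limma adjusted p = 0.0325, past the threshold in 10 of 18 fits and lost without CDX population 1 or 2, Control population 1 or MLX population 3), whereas both bright probe sets of RpS29 had slopes of -0.40 and -0.39. Median centring of the arrays left 3 members past the threshold (RpL10Aa, RpS28-like and RpS10a), with 738 probe sets in place of 1923. The slopes of RpS19b and RpL37-2, no longer past it, were 1.12 and 1.46 there. After repeated normalization they were 0.78 and 1.03, also not past the threshold. In both settings the testis mean was recomputed from the changed values, so the sizes of these slopes cannot be set against those above. The testis mean itself correlated with the array median (r = 0.738) and with the mean of the bright main copies (r = -0.671), and the part of either in these slopes was not tested.

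**Figure D5:**
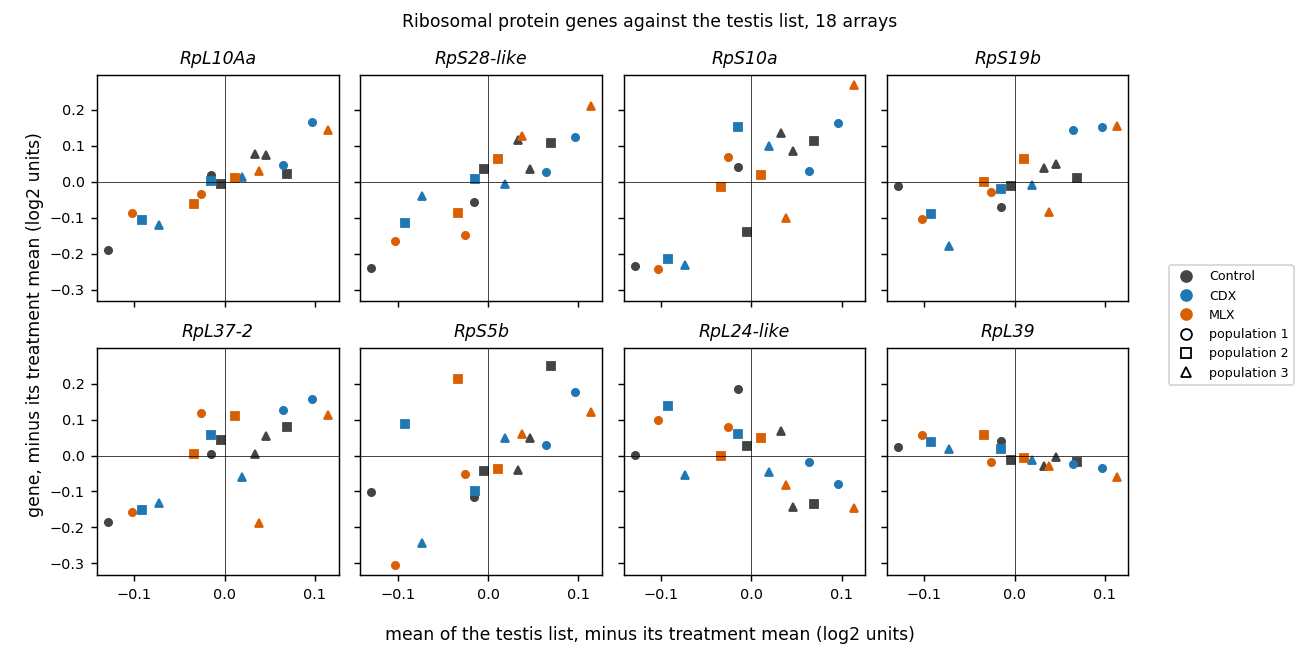
Log2 value of 8 ribosomal protein genes (y axis) against the mean of the testis list (x axis) on 18 arrays, both with the treatment mean subtracted; colour is treatment and shape is population. RpL10Aa, RpS28-like, RpS10a, RpS19b and RpL37-2 rise with the list, at slopes of 0.99 to 1.98. RpS5b scatters more widely, and RpL24-like and RpL39 fall, with adjusted p-values of 0.101 and 0.158 in limma.

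The other paralog copies did not pass. RpS5b had a slope of 1.31 (SE 0.44, limma adjusted p = 0.0558), RpL22-like of 0.91 (SE 0.36, adjusted p = 0.0989) and RpS28a of 0.61 (SE 0.29, adjusted p = 0.174). RpL24-like and RpLP0-like had slopes of -0.81 (SE 0.32, adjusted p = 0.101) and -0.72 (SE 0.31, adjusted p = 0.138). Of the 27 bright main copies 25 had an r below 0 with the testis mean, RpL39 the lowest at -0.805. On the mean of the female germline list (22 genes) no member rose past the threshold, beside 0.192% of all probe sets. RpS5b had the steepest rising slope of the members there, 0.69 (SE 0.20, limma adjusted p = 0.441, r = 0.686).

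Other genes of translation were set beside the members, taking 1 probe set per gene. Of 69 mitochondrial ribosomal protein genes 51 were higher in CDX and 47 higher in MLX than in Control, with medians of 0.019 and 0.023, and mRpL48 had the largest moderated t in both (0.10 and 0.11, SE 0.05). None of them was past the threshold, and none rose with the testis list. Of 40 initiation factors 26 and 33 were higher than Control in CDX and MLX, with eIF3f1 at 0.14 (SE 0.05) in CDX, and 10 of 40 rose with the testis list (10.2% of all probe sets did). Of 10 elongation and termination factors 5 and 4 were higher, with eRF3 at -0.09 and -0.10 (SE 0.05), and 2 rose with the testis list.

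Of 40 ribosome biogenesis genes 12 were higher in CDX and 19 in MLX than in Control. The nucleolar gene vito was at -0.175 (SE 0.06) in CDX, and Tif-IA, which recruits RNA polymerase I, at -0.13 (SE 0.05) in MLX males. On the testis list 1 of the 40 rose and none fell. Of 24 regulators of ribosomal protein genes 11 and 16 were higher, with Tbp, the TATA binding protein, at 0.10 (SE 0.06) and 0.11 (SE 0.06). Mnt, the antagonist of Myc, was at 0.11 (SE 0.06) and Ilp2, an insulin-like peptide, at -0.14 (SE 0.09) in MLX against CDX. On the testis list 1 of the 24 rose and 1 fell (3.86% of all probe sets fell). No gene of these lists passed the threshold in limma in any of the 3 comparisons, where 0.0% of all probe sets did.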

How the data were processed

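RNA of whole males was hybridised to 18 arrays. The authors deposited log2 expression values made by RMA in the package affy, of which no version is known here, and 18952 probe sets were read unchanged. The 183 Affymetrix controls were left out of the tests and gave the 3' minus 5' difference of 5 control transcripts. Genes were named from the platform annotation, updated through RefSeq for Release 6 plus ISO1 MT, from which chromosome arms were taken; no coordinates were used. 1 symbol of the rule is not reported here.

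Models were fitted in R 4.3.3 by limma 3.58.1. Treatment was fixed, population (9 levels) entered as a random block by duplicateCorrelation (estimated correlation 0.192), and variances were moderated by eBayes. P-values were adjusted by Benjamini-Hochberg over 18769 probe sets, threshold 0.05. Nothing states whether populations of different treatments share a number by design, and p-values measure the spread between these arrays and populations. Slopes on the mean of a marker list came from the same fit with that mean added. Medians over genes took, where a gene had several probe sets, the brightest. The fits were checked on simulated data with planted differences larger than any of the members and errors independent between probe sets. Recovery of differences of the sizes seen here was not checked. Tables, permutation tests and plots were made in Python 3.11.15 (pandas 2.3.3, numpy 2.4.6, matplotlib 3.10.9, scipy 1.17.1).

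The members and gene lists were chosen with earlier results of these data known. Named were all paralog copies, and per comparison the 3 main copies with the most positive and the 3 with the most negative moderated t, those whose populations were fully separated (up to 3 a direction), and up to 3 genes of each other list. RpS21, the stalk genes and the main copies named for the testis list or a probe set were chosen after their values were seen. Alternatives were population means, independent arrays, the population number as a block, centring, repeated normalization, 3 filters, other gene summaries, 2 covariates, robust, level-dependent or no moderation, 6 arrays left out, and each population left out (for the pairs and RpL22-like in CDX, added after the values were seen). Values of marker lists are means over probe sets.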

Additional observations from a re-analysis of the deposited data

Results flagged for a closer look

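In 6 of 81 groups of 6 arrays, over the named genes and those called on the testis list, an array lay farther from the others than Dixon's 95% critical value for 6 values allows, and chance flags about 5% of groups. RpL10Aa and RpL37-2 were low on the same array, Control population 1, male 1, which had the lowest testis mean. RpL10Aa read 11.01 there, with the other Control arrays between 11.19 and 11.27, and RpL37-2 read 8.49, with the others between 8.67 and 8.75. The other array of that population, male 2, was high in RpL3, at 13.52 against 13.41 to 13.45, and in RpL34a, at 11.64 against 11.56 to 11.57. RpL22-like read 8.92 on Control population 3, male 1, with the other Control arrays between 9.03 and 9.09. RpS18 read 13.91 on MLX population 1, male 1, with the other MLX arrays between 13.83 and 13.86.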

How the results depend on the processing

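Each comparison was repeated under 23 other settings. No member was called in any of them. The numbers of called probe sets stayed at 0 in CDX against Control, and were 0 to 4 in MLX against Control and 0 to 1 in MLX against CDX when each population was left out in turn (2 without Control population 3, 4 without MLX population 3, 1 without MLX population 1). With arrays as independent samples 1 probe set was called in MLX against CDX. Leaving out populations, the median of the main copies in MLX against CDX ran from -0.020 to 0.0072, the upper value without CDX population 2, and that of the paralog copies from -0.032 to 0.045, the upper value without CDX population 1; the cause was not tested. All other medians moved by less than the spread between populations, though in CDX against Control that of the main copies ran from 0.0067 to 0.027 and that of the paralog copies from 0.020 to 0.061.

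Same-numbered populations had correlations of -0.137 to 0.384 (median 0.136, 7 of 9 above 0) and other pairs -0.33 to 0.217 (median -0.0781, 7 of 18 above 0). Since not every same-numbered pair lay above 0.1, the number was not taken to pair the treatments. CDX males had Control fathers, so CDX and Control populations may be related, and the main fit did not model this. With the number as a replicate block the count of called probe sets was 0 in all 3 comparisons. Some differences changed sign. Leaving out populations, the CDX minus Control value ran from -0.11 to 0.010 for RpL37-2 (above 0 without CDX population 3), from -0.026 to 0.0040 for RpL39 (above 0 without population 1 of either treatment) and from -0.059 to 0.032 for RpL10Aa (above 0 without Control population 3 or CDX population 2 or 3). RpL3 ran from -0.029 to 0.00086 in MLX against Control, above 0 without population 1 of either. In MLX against CDX the ranges were -0.014 to 0.030 for RpLP0 and -0.071 to 0.032 for RpS28a (signs turned without CDX population 1), -0.0077 to 0.16 for RpS28-like (0.08 with all populations, below 0 without MLX population 3) and -0.026 to 0.0092 for RpS28b (without CDX population 2). With the sign kept, RpL27 ran from -0.16 to -0.05, RpLP0-like from -0.14 to -0.02 and RpL7-like from 0.01 to 0.11 in CDX against Control, and RpL24-like from 0.06 to 0.16 in MLX against Control. Without the 6 yolk-high arrays RpL37-2 was 0.0043 and RpL10Aa 0.014, and RpL10Aa was 0.0053 with the end difference and 0.0091 with the yolk mean as a covariate; the cause was not tested.

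In place of the 1923 probe sets that rose with the testis list, the count was 738 after median centring and 798 without the 2 arrays farthest in the list mean. In place of 6 members there were 3 after median centring, 3 after repeated normalization and 3 without CDX population 1, and 3 to 7 over all populations left out. RpS19b did not pass without the yolk-high arrays (slope 1.09) nor RpL37-2 without the 2 farthest arrays (1.201), with slopes close to the 0.99 and 1.25 of all arrays. RpS5b passed in 6 of 18 fits, among them those without CDX population 2 and without MLX population 2, RpL22-like in 1 (without Control population 1), and RpLP0-like fell in 1 (slope -1.11, repeated normalization). With 6 arrays and 3 populations per treatment, differences inside the intervals given could not be resolved. For the bright main copies these intervals rest on moderated standard errors, which were larger than those from their own spread.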
